A study of Mus musculus with 3 samples.

Results

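The mouse genes for the proteins of the cytosolic ribosome were read in 3 libraries of aortic endothelial cells. They were taken by name: protein-coding genes whose symbol starts with Rpl or Rps and goes on with a digit, together with Rpsa and the stalk genes Rplp0, Rplp1 and Rplp2, while pseudogenes (symbols with -ps) and the Rps6k kinases were left out. This gave 84 of the 18287 genes in the tables. Of the 84, 77 code for subunit proteins, which are here called core members: 43 of the large subunit, 31 of the small subunit and 3 of the stalk. The other 7 are Rpl3l, Rpl7l1, Rpl22l1, Rpl36al, Rps27l and Rps27rt, which resemble subunit genes, and Rps19bp1, which codes for a protein that binds Rps19 and is no subunit. The 84 genes lie on 19 chromosomes, with 14 on chromosome 7 and 8 each on chromosomes 9 and 17. For 83 of them the mean normalized count over the libraries was 10 or more, the exception being Rpl3l, and for 78 it was 1000 or more.

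The cells were a purchased culture of mouse aortic endothelium (MAECs), and polyadenylated RNA went into stranded libraries. One group was the control. Cells of the second group received glucose oxidase, which turns glucose and oxygen into hydrogen peroxide, at 5 mU/mL for 30 min. Cells of the third group received the same glucose oxidase exposure together with ethyl-2-hydroxybenzylamine (Et2HOBA), at 0.2 mM for 24 h. According to the series, Et2HOBA was used to scavenge adducts. The order of the exposures and the time from the glucose oxidase exposure to harvest are not given in the sources used here, and a library of Et2HOBA alone was not analysed here. With 1 library in each group there is no replicate, so no difference below could be tested between conditions. The 95% intervals (exact, Clopper-Pearson) come from the reads of the 2 libraries compared, and they cover counting error only.

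Ribosomal proteins assemble with ribosomal RNA into a small subunit, which decodes the mRNA, and a large subunit, which joins amino acids and releases the growing chain through an exit tunnel. Most of their mRNAs, and those of several translation factors, begin with a C followed by a run of pyrimidines, the 5′ terminal oligopyrimidine (TOP) motif, through which mTORC1 and the RNA-binding protein Larp1 control how strongly they are translated. In most cells these mRNAs are among the most abundant. Mammalian genomes also hold very many processed pseudogenes of these genes, which are intronless copies of the spliced mRNA.

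The libraries held 35969965 reads over the listed genes in control, 35005089 with glucose oxidase and 40212212 with glucose oxidase plus Et2HOBA. Counts for cells given glucose oxidase alone were worked back from the authors' deposited log2 differences with the help of the control counts. All 11 endothelial markers looked for were listed, and their reads summed to 377936 in control, 230315 with glucose oxidase and 226320 with both agents. Against control, 10 of the 11 were lower with glucose oxidase and 9 of the 11 with both agents. Of all 18287 listed genes, 9349 and 9146 were lower, in the same order. Of the 1736 protein-coding genes with a mean normalized count of 5000 or more, 756 and 640 were lower. Smooth muscle markers (5 of 6 listed, nearly all reads from Smtn) summed to 5014, 3588 and 4095 reads, in the same order. Fibroblast markers (2 of 6 listed) summed to 135, 1355 and 2844 reads, of which Pdgfra held 107, 1325 and 2821. Leukocyte markers (2 of 7 listed) summed to 8221, 17079 and 27809 reads, nearly all from Cd68, while Csf1r had 6, 12 and 10. Of the epithelial or mesothelial markers 1 of 4 was listed, Msln, with 980, 2493 and 3904 reads. Ptprc, Itgam and Cd3e are not among the listed genes. The part of these marker differences in the values below was not tested, and in bulk RNA a change in the mix of cells and a change in RNA per cell cannot be told apart.

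Of the 84 members, 64 had an entry in the RefSeq promoter set (build GRCm38.p6). The stretches below run from 25 bases before to 25 bases after the RefSeq start, on the strand of the gene and written 5′ to 3′, with the longest run of C and T in capitals. They are shown because the TOP motif lies at the first bases of the mRNA. In each stretch the first 25 bases lie before the RefSeq start and so outside the mRNA as annotated there. The marked runs of Rpl5, Rps15a, Rpl4 and Rpl37a lie wholly in that part. Rpl12, Rpl5, Rps15a, Rpl4 and Rps6 stood high in at least 1 treated library and Rps21 and Rpl37a stood low.
Rpl12, chr2:32961687-32961736, plus strand: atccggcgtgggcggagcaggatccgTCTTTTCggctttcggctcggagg
Rpl5, chr5:107900503-107900552, plus strand: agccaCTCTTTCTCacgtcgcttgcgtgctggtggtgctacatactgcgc
Rps15a, chr7:118116123-118116172, minus strand: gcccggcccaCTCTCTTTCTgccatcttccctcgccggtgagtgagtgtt
Rpl4, chr9:64173362-64173411, plus strand: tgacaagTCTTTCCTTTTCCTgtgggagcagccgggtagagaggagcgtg
Rps6, chr4:86857343-86857392, minus strand: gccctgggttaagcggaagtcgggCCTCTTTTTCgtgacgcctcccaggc
Rps21, chr2:180257354-180257403, plus strand: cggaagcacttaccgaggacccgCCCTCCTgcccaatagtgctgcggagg
Rpl37a, chr1:72711235-72711284, plus strand: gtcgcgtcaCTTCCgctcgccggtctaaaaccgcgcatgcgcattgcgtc

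A second set pairs subunit genes with a relative. Rpl22 and Rpl22l1 code for similar proteins from separate loci, Rps27rt is a retrogene of Rps27, and Rpl3l is the striated muscle relative of Rpl3. Within the first 25 transcribed bases, Rps27 and Rps27rt hold the same run of 24 bases, ctttccggcggtgacgacctccct.
Rpl22, chr4:152325701-152325750, plus strand: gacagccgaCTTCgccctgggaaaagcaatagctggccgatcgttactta
Rpl22l1, chr3:28805483-28805532, plus strand: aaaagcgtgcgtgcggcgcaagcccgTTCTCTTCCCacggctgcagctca
Rps27, chr3:90213624-90213673, minus strand: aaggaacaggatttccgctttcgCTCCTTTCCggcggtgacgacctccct
Rps27rt, chr9:114982715-114982764, minus strand: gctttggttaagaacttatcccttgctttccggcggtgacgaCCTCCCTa
Rpl3l, chr17:24727801-24727850, plus strand: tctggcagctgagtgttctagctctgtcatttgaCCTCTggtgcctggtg

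A C/T run of 8 or more bases in this window was found in 29 of the 64 members (45.3%). The same held for 18.6% of the 10479 listed protein-coding genes with an entry. Runs before and after the start were counted alike. The RefSeq start is 1 annotated position, and it can lie far from the start of the gene in the deposited table. The distance was 153 bases for Rpl12, 1947 for Rps2, 2614 for Rpl18 and 3553 for Rps24. A run outside the window is not counted. In the full 300 bases, from 250 before to 50 after the start, CCGGAAG, the core of the site for ETS factors such as GABPA, occurred on either strand in 24 members (37.5%) and in 17.8% of all the promoters. AAGATGGC, the core of the YY1 site, occurred on either strand in 5 members (7.81%) and in 4.56% of all the promoters. These matches describe letters and show no binding.

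Levels between genes were compared as reads per kilobase of transcript, scaled to the listed reads of the library (RPKM). In control the highest levels were those of Rplp1, an acidic protein of the stalk that recruits elongation factors, at 1903 RPKM, and Rps21, a small subunit protein, at 1597. Rps12, Rps28 and Rps15, also of the small subunit, followed with 1478, 1464 and 1446. The order moved between libraries for a few members. Rps21 ranked 2 of 84 in control, 8 with glucose oxidase and 10 with both agents. Rpl37a, a zinc-binding protein of the large subunit, ranked 20, 35 and 45. Rpl12, which sits at the base of the stalk, went the other way, from rank 52 in control to 41 and 32. The transcripts used for length were 5130 bases for Rps15a and 3706 for Rps20, which sets both low on this scale. Other members also had transcripts much longer than their coding part, among them Rpl5 (2045 bases, 891 coding) and Rpl12 (1242 bases, 495 coding). Levels and ranks between genes therefore depend on the transcript used.

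**Figure D1:**
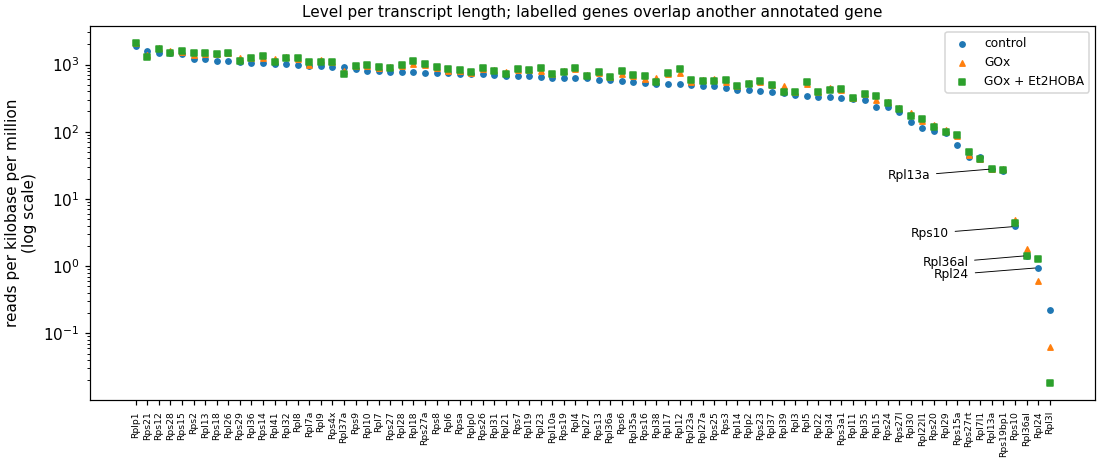
Level of ribosomal protein genes in reads per kilobase of transcript, scaled to library size (RPKM, log axis), sorted by control, with 1 point per library, for 80 of the 84 members. Most members lie in a narrow upper band, and the named points at the right, Rpl13a, Rps10, Rpl36al and Rpl24, overlap another annotated gene.

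A few members stood far below the rest. Rpl24 had 23, 14 and 35 reads, in the order control, glucose oxidase, glucose oxidase plus Et2HOBA, which is kept below. Rpl36al had 27, 33 and 30 reads, Rps10 had 124, 149 and 157, and Rpl13a had 1050, 1030 and 1190. All 4 share exons with another annotated gene, none of which is among the listed genes: 71.49% of the Rpl24 transcript lies in Gm28037, 63.12% of Rpl36al in Gm49383, 59.31% of Rpl13a in Gm45713 and 53.55% of Rps10 in RPS10-NUDT3. The median control count was 124 reads over the 3 core members among them and 18140 over the other 74 core members, whose lowest count was 2448. How reads in shared exons were assigned was not tested, so the low counts of these 4 are uncertain as measures of their mRNA. Rpl3l, expressed in heart and skeletal muscle, had 11, 3 and 1 reads. Its normalized count with both agents was 0.0903 times that in control (95% interval 0.0021 to 0.622), and with glucose oxidase 0.292 times (0.0522 to 1.1). Both treated counts are at or under the floor of 3 reads used here, so these ratios are given only with their wide intervals.

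The first comparison asks how the ribosomal protein mRNAs stood in the library of cells given glucose oxidase against control. The family as a whole was moderately higher. Of the 84 members, 79 were higher by any amount, against 48.9% of all listed genes. Among the 1736 protein-coding genes with a mean normalized count of 5000 or more, here called abundant, 56.45% were higher. The median log2 ratio of the members was 0.31, against -0.01 for all genes and 0.05 for the abundant protein-coding genes. Ratios are log2 of normalized count plus 10, which makes the difference of low genes look smaller. No member differed by 1 log2 unit, against 12.7% of all genes in either direction. Of the 1736 abundant protein-coding genes, 87 were that much higher and 25 that much lower. An excess of 0.5 log2 units or more was found for 5 members, against 13.5% of all genes and 13.65% of the abundant ones. With total-count scaling it was found for 3 members, against 12% of all genes. A deficit of that size was found for 1, Rpl3l, against 20.3% of all genes and 137 of the 1736 abundant ones. The shift was thus small and shared, and the lower and upper quartiles of the members were 0.21 and 0.39. Summed over all members, normalized reads were 1.24 times those in control (95% interval 1.233 to 1.239). For 76 members the counting interval of the fold lay above 1, against 29.7% of all genes and 51% of the abundant protein-coding genes, for 2 below 1, against 30.6% and 37.4%, and for 6 it held 1. At such depth an interval can lie off 1 for a very small difference.

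Among the 43 large subunit genes 41 were higher with glucose oxidase, with a median of 0.31. Rpl12 (chromosome 2, 32961559 to 32965345) had the highest ratio of all members: its normalized count was 21893 in control, 33626 with glucose oxidase and 41550 with both agents. With glucose oxidase it was 1.54 times control (95% interval 1.51 to 1.56), a log2 ratio of 0.62. Rpl5 (chromosome 5, 107900502 to 107909005) carries 5S ribosomal RNA into the large subunit and, when free, binds the p53 regulator Mdm2. It had normalized counts of 24479, 37480 and 43068, and a log2 ratio of 0.61. Both genes were lowest in control and highest with both agents. Rpl17, which lines part of the exit tunnel, had 13714, 20384 and 22586, and a log2 ratio of 0.57. At the low end stood Rpl37a (chromosome 1, 72711290 to 72713813), with 17588, 16411 and 15739 and a log2 ratio of -0.10, and Rpl24, whose 14 to 35 reads place no value. Rpl11, the partner of Rpl5 in the 5S particle, had 8879, 9608 and 10229 and a log2 ratio of 0.11, so the members of this particle did not stand at one level. Rpl11 was chosen after its values were seen.

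The 3 stalk genes were higher as well. Rplp0, which anchors the stalk, had normalized counts of 34350, 37226 and 40525. Rplp1 had 33102, 37602 and 40700, and Rplp2 had 14156, 18515 and 19053. Their log2 ratios with glucose oxidase were 0.12, 0.18 and 0.39. The 3 proteins form 1 complex, in which Rplp1 and Rplp2 pair with each other, and among their transcripts that of Rplp2 had the highest ratio.

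Of the 31 small subunit genes 30 were higher with glucose oxidase, with a median of 0.32. Rps15a had normalized counts of 11184, 16074 and 17601 and a log2 ratio of 0.52. Rps23, whose conserved loop lies at the decoding site, had 13100, 18615 and 20623 and a log2 ratio of 0.51. Rps27a, made as a fusion of ubiquitin with a small subunit protein, had 16724, 22797 and 24939 and a log2 ratio of 0.45. Rps21 (chromosome 2, 180257377 to 180258445) was the 1 small subunit gene below control, with 21926, 19807 and 19655, a fold of 0.903 (95% interval 0.886 to 0.921) and a log2 ratio of -0.15.

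The 7 other members had a median log2 ratio of 0.18 with glucose oxidase. Rpl22l1, the relative of Rpl22, had normalized counts of 2189, 2887 and 3360 and a ratio of 0.40, beside 0.30 for Rpl22 itself. Rps27l, a p53 target gene, had 3414, 4011 and 4148 and a ratio of 0.23, beside 0.28 for Rps27. Rpl7l1, a relative of Rpl7, had 3775, 3772 and 3973, practically level at -0.0014. Rps27rt had 551, 611 and 728, and 91.08% of its 50-base stretches are shared with another gene, so its reads cannot be cleanly parted from those of its copies. Rps19bp1, which shares no stretch, had 751, 853 and 868 and a ratio of 0.18.

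**Figure D2:**
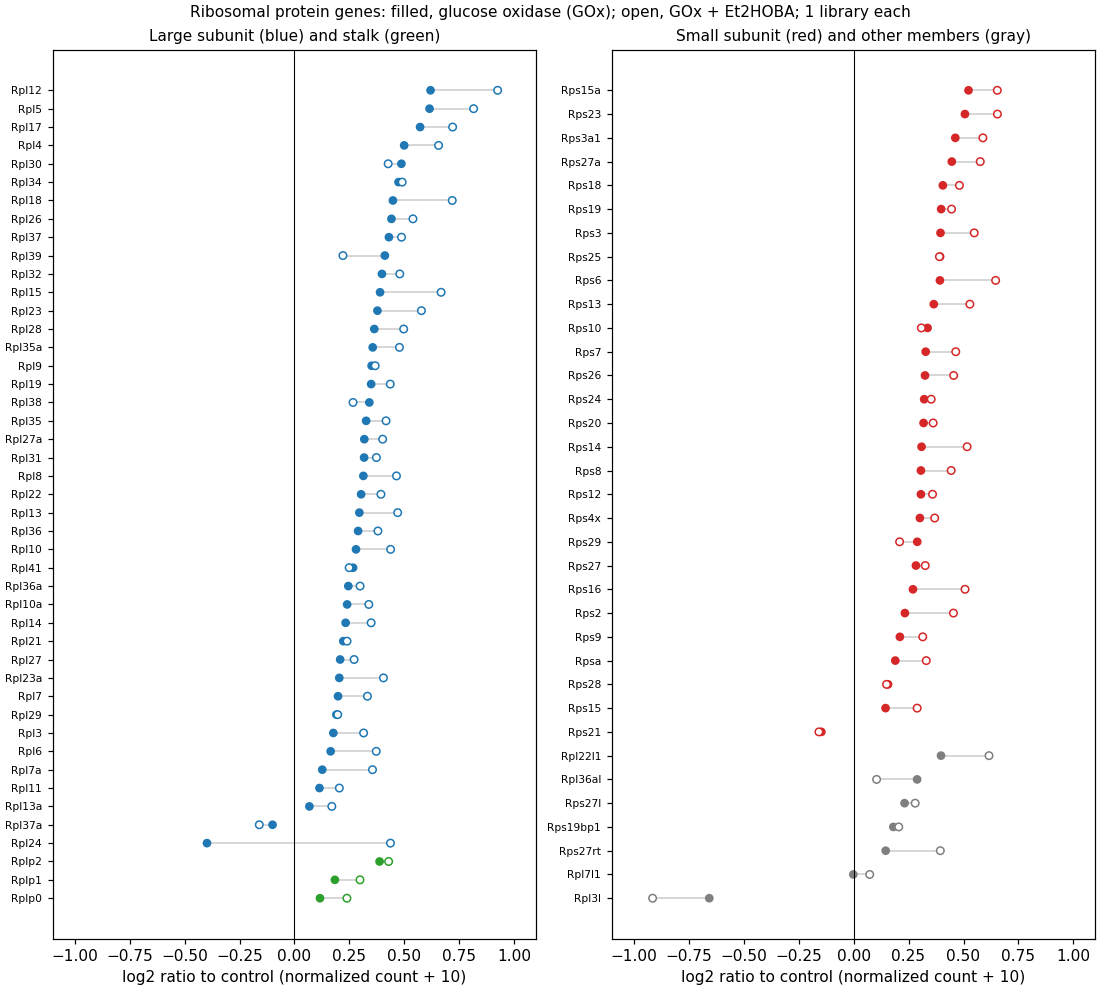
Log2 ratio to control of 80 of the 84 ribosomal protein genes (normalized count plus 10), with filled points for glucose oxidase and open points for glucose oxidase plus Et2HOBA, colored by subunit and joined by a line, 1 library per group. Nearly all points lie right of 0, up to 0.62 and 0.92 for Rpl12, while Rps21, Rpl37a and Rpl3l lie left of 0 in both.

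The second comparison sets cells given glucose oxidase plus Et2HOBA against the same control library. Here 81 of 84 members were higher, against 50% of all genes and 63.13% of the abundant protein-coding genes. The median log2 ratio of the members was 0.40, against -0.00015 for all genes and 0.15 for the abundant protein-coding genes. No member passed 1 log2 unit, against 14.7% of all genes. Of the 1736 abundant protein-coding genes, 167 were that much higher and 74 that much lower. An excess of 0.5 or more was found for 19 members (22.6%), close to the background of 19.2% of all genes and 24.31% of the abundant ones. A deficit of that size was found for 1, Rpl3l, against 20.9% of all genes and 222 of the 1736 abundant ones. With total-count scaling the median of all genes was -0.13 and that of the members 0.25, 78 members were higher, and 8 members, against 14.6% of all genes, had an excess of 0.5 or more. Summed normalized reads were 1.35 times control (95% interval 1.343 to 1.348), and the counting interval lay above 1 for 78 members, against 33.2% of all genes and 58.8% of the abundant ones, below 1 for 3, against 30.8% and 33.9%, and held 1 for 3.

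The large subunit had a median log2 ratio of 0.40, the small subunit 0.45, the stalk 0.30 and the 7 others 0.21. Rpl12 was 1.9 times control (95% interval 1.87 to 1.93; log2 ratio 0.92) and Rpl5 1.76 times (log2 ratio 0.81). Rpl17 followed at 0.72. Rpl18, with normalized counts of 18249, 24893 and 30017, also stood at 0.72, and Rpl15, with 6597, 8643 and 10480, at 0.67. Both were higher in the library with both agents than in either other library. In the small subunit Rps15a, Rps23 and Rps6 stood at 0.65 each. Rps6, the substrate of the S6 kinases, had normalized counts of 17384, 22826 and 27211. The lowest were Rpl37a and Rps21, both at -0.16, then Rpl7l1 at 0.07, Rps28 at 0.15 and Rpl13a at 0.17. Rps28 had normalized counts of 19499, 21739 and 21636, so that both treated libraries lay close together.

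A last comparison asks how the library with Et2HOBA stood against that with glucose oxidase alone. The difference was small: 72 of 84 members were higher, against 49.8% of all genes and 66.59% of the abundant protein-coding genes. The median log2 ratio of the members was 0.10, against 0.0 for all genes and 0.09 for the abundant protein-coding genes. This direction depends on the scaling. With total-count scaling the median over all genes was -0.08, that of the members 0.0088, and 45 of 84 members were higher by any amount, while 71 still lay above the median of all genes. No member passed 1 log2 unit, against 8.55% of all genes. Of the 1736 abundant protein-coding genes, 9 were that much higher and 9 that much lower. An excess of 0.5 or more was found for 1 member, against 13.6% of all genes and 5.93% of the abundant ones. A deficit of that size was found for none, against 12% of all genes and 60 of the 1736 abundant ones. The 1 member is Rpl24, at 14 against 35 reads. Summed normalized reads were 1.09 times those with glucose oxidase alone (95% interval 1.087 to 1.091).

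The genes at the low end between the treated libraries were short. Rpl39, a very small protein of the exit tunnel, had normalized counts of 8026, 10676 and 9353, so that the library with both agents lay between the others, at a log2 ratio of -0.19 to glucose oxidase alone. Rps29, a small zinc-binding protein, stood at -0.08, Rpl38 at -0.07, and Rpl37a and Rpl30 at -0.06 each. At the high end stood Rpl12 at 0.31, Rpl15 at 0.28, Rpl18 at 0.27, and Rps6 and Rps27rt at 0.25 each. Among the 75 core members with a mean normalized count of 1000 or more, the 9 with a lower count under Et2HOBA had coding lengths of 75 to 375 bases (median 210), and the 66 with a higher count had 252 to 1257 bases (median 477). By length, the 9 genes under 300 coding bases had a median log2 ratio of -0.02, the 44 genes of 300 to under 600 bases 0.09, and the 22 genes of 600 bases or more 0.15. Spearman's rho between ratio and coding length was 0.63 over these 75 genes, which share the same libraries and are not independent. In the comparison of glucose oxidase with control it was -0.06, and for both agents against control 0.26. A relation of length to RNA quality or to fragment size was not tested.

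As a share of all listed reads, the 84 genes held 4.028% in control (95% interval 4.022 to 4.035), 4.785% with glucose oxidase (4.778 to 4.792) and 4.88% with both agents (4.873 to 4.887). The step from control to either treated library was therefore larger than the step between the treated libraries. Ferritin heavy chain, Fth1, alone held 0.51%, 1.551% and 1.93% of listed reads, and without it the member shares were 4.049%, 4.861% and 4.976%. Within the family the mix of reads moved too. Rpl12 held 1.56% of member reads in control, 1.94% with glucose oxidase and 2.2% with both agents. Rps21 went the other way, at 1.56%, 1.14% and 1.04%.

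**Figure D3:**
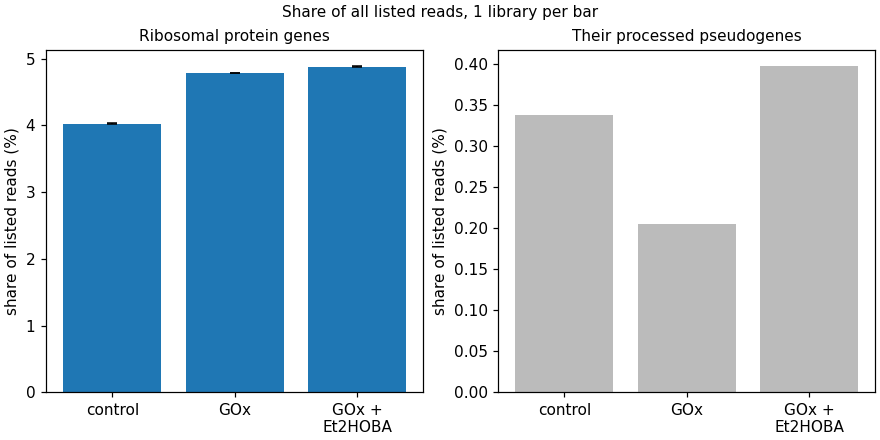
Share of all listed reads in percent held by the 84 ribosomal protein genes (left) and by 584 processed pseudogenes matched to them (right), 1 library per bar, with 95% counting intervals on the left. The gene share is 4.028% in control and 4.785% and 4.88% in the treated libraries, while the pseudogene share is lowest with glucose oxidase alone.

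Reads of processed pseudogenes bear on these counts, since a read from the parent mRNA can be placed on a copy. Matching by shared 50-base stretches tied 584 listed processed pseudogenes to 79 of the 84 members. Their reads summed to 121614 in control, 71898 with glucose oxidase and 159723 with both agents, which is 8.39%, 4.29% and 8.14% of the members' reads. The glucose oxidase library stood apart: the median log2 ratio of the 584 was -1.047 for glucose oxidase against control, 0.29 for both agents against control, and 1.33 for both agents against glucose oxidase alone. Summed per member, pseudogene reads were lower with glucose oxidase than in control for 76 of 79 members, 72 of which were themselves higher. With both agents they were higher than in control for 76 of 79. Of all 18287 listed genes, 9349 were lower with glucose oxidase than in control and 9140 were higher with both agents. Gm8730, a copy of Rplp0 and far more abundant than most, had 17491, 16375 and 20791 reads and did not share the pattern. Gm4600, a copy of Rpl9, had 676, 5 and 908 reads, and Gm7392, matched to Rps26, had 740, 27 and 1021. Gm5735, matched to Rps29, had 281, 7 and 325, and Gm13215, matched to Rps27a, had 233, 2 and 327.

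Before scaling for depth, the members held 226116 more reads with glucose oxidase than in control, and the difference for the pseudogenes was -49716. When each member was summed with its pseudogenes, the median log2 ratio was 0.26 with glucose oxidase, 0.40 with both agents, and 0.17 between the treated libraries, and 75, 81 and 79 of 84 sums were higher. With glucose oxidase, 4 members that were higher on their own stood below control under this sum. For 3 of them, which also overlap another gene, the ratio went from 0.29 to -1.72 (Rpl36al), from 0.34 to -0.91 (Rps10) and from 0.07 to -0.46 (Rpl13a). Rpl24, lower on its own at -0.40, stood at -1.32. The other was Rpl30: its own counts were 2809, 3939 and 3778 after normalization, a log2 ratio of 0.49, but with its 11 pseudogenes the ratio was -0.10. Its copy Rpl30-ps1 had 1287, 76 and 1700 reads. Spearman's rho between the ratio of a member and that of its summed pseudogenes was -0.0089 for glucose oxidase against control and 0.77 for both agents against control, over 79 members whose libraries, and in part reads, are shared. Whether the pseudogene counts reflect transcripts of the copies or misplaced reads was not tested.

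**Figure D4:**
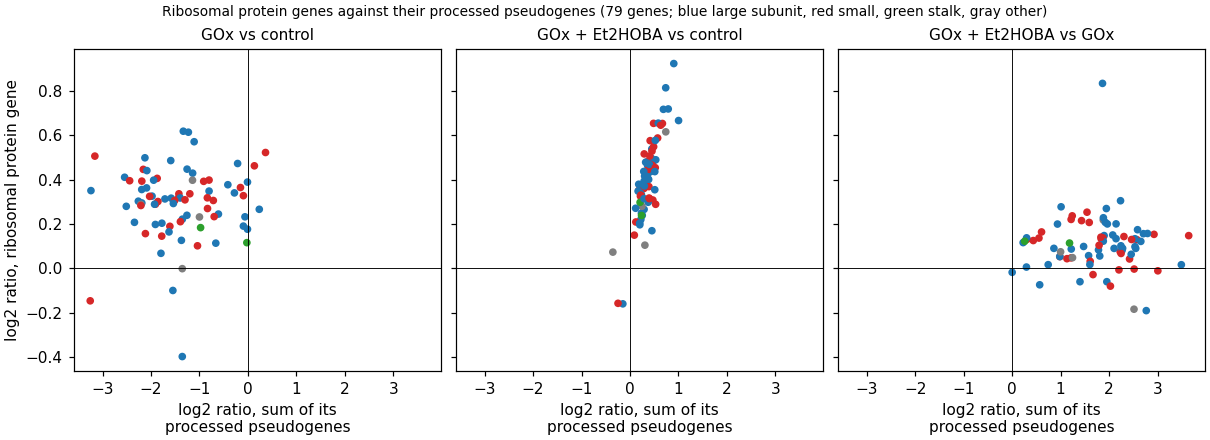
Log2 ratio of each of 79 ribosomal protein genes (vertical axis) against the log2 ratio of its summed processed pseudogenes (horizontal axis) in the 3 comparisons, 1 point per gene, colored by subunit. With glucose oxidase against control most points lie at the upper left, where the gene is higher and its pseudogenes are lower, and with both agents against glucose oxidase most lie to the right.

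The members also differ in how much sequence they share. Of the 50-base stretches of a member's transcript, a median of 52.6% occurred in another annotated gene, with a range of 0.0 to 98.65%. The 9 core members with under 25% shared and a mean normalized count of 1000 or more had a median log2 ratio of 0.40 with glucose oxidase and 0.46 with both agents. The 25 with 25 to 50% shared had 0.32 and 0.43, the 22 with 50 to 75% had 0.30 and 0.37, and the 19 with 75% or more had 0.30 and 0.44. All 9 genes in the group with the least sharing were higher in both treated libraries than in control. The share depends on the length of the transcript used. In this group Rps15a, Rps20 and Rps24 had transcripts of 5130, 3706 and 1613 bases, with coding lengths of 390, 357 and 399 bases. Of their stretches 307, 272 and 298 were shared, and 8, 4 and 9 pseudogenes were matched to them. Their low shares thus do not mark them as free of copies. Chosen after their values were seen, Rps3, an RNA-binding protein at the mRNA entry, had 2.96% shared and normalized counts of 29331, 38582 and 42916, Rpl8, which lies next to the peptidyl transferase center, had 7.86% and 29534, 36701 and 40741, and Rpl4, which reaches into the exit tunnel, had 16.4% and 33850, 47838 and 53320. In each the control library was lowest.

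Other genes known for TOP mRNAs stood at about the same ratios. Of 24 looked for, 23 are listed, and 23 were higher with glucose oxidase, 22 with both agents, and 19 with both agents against glucose oxidase alone. The shares higher were 48.9%, 50% and 49.8% of all listed genes, and 56.45%, 63.13% and 66.59% of the abundant protein-coding genes. Their median log2 ratios were 0.31, 0.45 and 0.16. Gas5, the non-coding host of small nucleolar RNAs, had 2122, 4676 and 5500 reads and log2 ratios to control of 1.23 and 1.36. Snhg1, another such host, had 1017, 1317 and 1842 reads, with 0.47 and 0.84. Rack1, a scaffold on the small subunit, had 29642, 41763 and 49316 reads, with 0.59 and 0.73. Btf3, part of the nascent chain complex, stood at 0.47 and 0.80 and Nap1l1, a histone chaperone, at 0.50 and 0.77. Vim stood lowest in the list with both agents, at 0.01 and -0.27. Fau, which codes for a small subunit protein fused to a ubiquitin-like one, stood at 0.18 and 0.39.

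Genes for ribosome assembly, many of which have no shared stretch, were mostly higher as well. Of 48, all listed, 44 were higher with glucose oxidase, 43 with both agents, and 40 between the treated libraries. The shares higher were 48.9%, 50% and 49.8% of all listed genes, and 56.45%, 63.13% and 66.59% of the abundant protein-coding genes. The assembly genes had median log2 ratios of 0.29, 0.43 and 0.15. Noc2l, a nucleolar factor for the large subunit, had 1118, 1815 and 2617 reads and log2 ratios to control of 0.79 and 1.21. Wdr75, of the small subunit processome, had 1748, 2761 and 3552 reads, with 0.75 and 1.01. Rrp9, a protein of the U3 particle, stood at 0.71 and 0.998 and Wdr74 at 0.70 and 1.003. Eif6, which keeps free large subunits from joining, differed between the treated libraries, with 4180, 6389 and 4638 reads and ratios of 0.71 and 0.14. Ubtf, a factor of RNA polymerase I, was the lowest with glucose oxidase at -0.17, and Nop10 was the lowest with both agents at -0.26. The assembly genes and the ribosomal proteins thus had medians within 0.05 of each other in each comparison.

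Regulators of these mRNAs did not stand together. Of 13 looked for and listed, 9 (69.2%) were higher with glucose oxidase and 8 (61.5%) with both agents. The shares higher were 48.9% and 50% of all listed genes, and 56.45% and 63.13% of the abundant protein-coding genes. Eif4ebp1, which blocks cap-dependent initiation when mTORC1 is inactive, had 1744, 8340 and 14695 reads and log2 ratios of 2.35 and 3.06. Its relative Eif4ebp2 was lower, at -0.37 and -0.70. Mdm2 stood at 1.01 and 1.28, Myc, which drives ribosomal gene transcription, at 0.58 and 0.95, and Sesn2, an inhibitor of mTORC1, at 0.76 and 0.89. Ddit4, another inhibitor, was lower at -0.55 and -0.89. Larp1 had 10794, 11929 and 15852 reads, with 0.24 and 0.54.

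**Figure D5:**
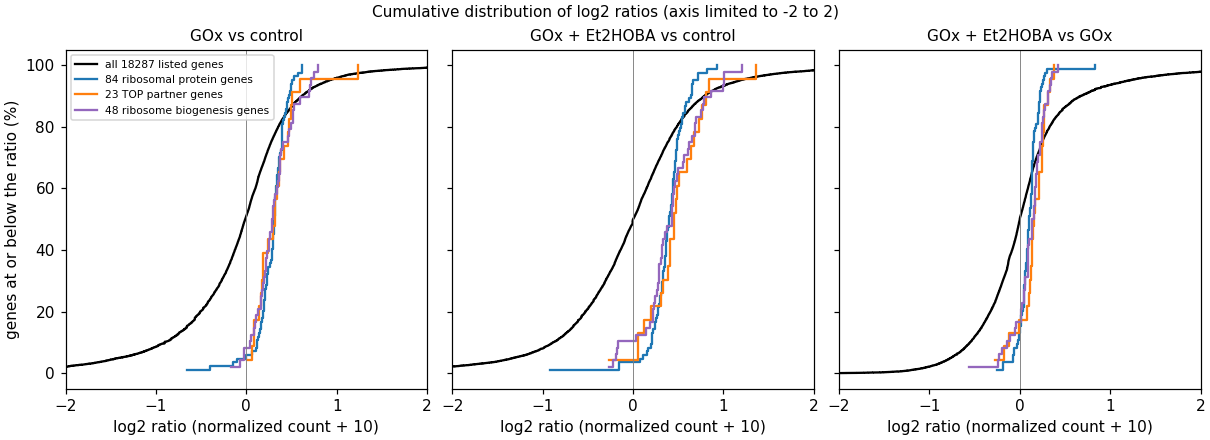
Cumulative percentage of genes at or below a log2 ratio (normalized count plus 10) in the 3 comparisons, for all 18287 listed genes, the 84 ribosomal protein genes, 23 TOP partner genes and 48 ribosome biogenesis genes, 1 library per group. The curves of the 3 lists are steeper than that of all genes and cross it at higher ratios, and their medians are 0.31, 0.31 and 0.29 for glucose oxidase against control, beside -0.01 for all genes.

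Promoter letters did not part the members by ratio to any large extent. Core members with a mean normalized count of 1000 or more were split by their longest C/T run on either side of the RefSeq start. The 26 with a run of 8 or more bases had median log2 ratios to control of 0.33 with glucose oxidase and 0.41 with both agents. The 29 with a shorter run had 0.30 and 0.44. The 22 with CCGGAAG in the 300 bases had 0.33 and 0.42, and the 33 without it had 0.30 and 0.39. Rpl12 and Rps21, both with a run of 7 bases, stood at opposite ends of the ratios.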

How the data were processed

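Libraries were 1 per group. Reads were aligned with STAR and counted with featureCounts on mm10, per the submitters' processing notes; versions and the annotation release are not given in the sources used here. The deposited tables hold read counts and log2 values for control and for glucose oxidase plus Et2HOBA, per the file headers, and, for the other comparisons, only deposited log2 differences. The glucose oxidase counts were recovered by inverting those differences with the control counts: for 18275 genes matched by symbol, 100% came within 0.01 of a whole read (3.31% did so with the control counts raised by 1 read). For 12 genes whose name stands for 2 genes the match was made by whole reads, and 19 symbols turned to dates were restored. The variance-stabilizing transformation of DESeq2 (version 1.42.0, R 4.3.3), run on each pair of libraries, gave back the deposited differences within 2e-08. For glucose oxidase against control this is no independent check, since the counts were recovered from those differences. The deposited differences between the treated libraries were not used for the recovery. They cover only 7 genes, and these came within 5e-10. Of the listed genes, 17878 had the same versioned ID in GENCODE M21 (GRCm38).

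Normalized counts are reads over size factors by the median of ratios, taken across the 3 libraries (1.03, 0.965 and 1.04). To these 10 was added, and log2 ratios were taken. The ratio computation was tested on simulated data. No p-value is given, as 1 library per group leaves no spread. Shared sequence was the share of 50-base stretches of the principal transcript found in another gene on the same strand. Members and lists were chosen with earlier results of these data known. Named genes were the 5 highest and 5 lowest members per comparison with a mean normalized count of at least 100, the paralogs, stalk and ubiquitin fusions, the 5 with the most reads per base, the members with no shared stretch, and at most 6 genes per related list; every further gene named was chosen after its values were seen. Alternatives were total-count scaling, a pseudocount of 1, a filter on low counts, genes without shared stretches, the deposited scale, and sums with pseudogenes. Python 3.11.15, numpy 2.4.6, pandas 2.3.3, scipy 1.17.1 and matplotlib 3.10.9 were used. Values of 4 single members are not reported here and are left out of the plots that name genes; all counts, medians and sums include them.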

Additional observations from a re-analysis of the deposited data

How the results depend on the processing

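With total-count scaling the median log2 ratio of the members was 0.2508 for glucose oxidase against control, 0.2474 for both agents against control and 0.008831 between the treated libraries. With a pseudocount of 1, the members past 1 log2 unit were 1, 1 and 2, in the same order, against 0 in each, while 23.2%, 24.6% and 18.1% of all genes passed. These members were Rpl3l in each comparison and Rpl24 between the treated libraries, at 35 reads or fewer. Over the 3 members with no shared stretch the medians were 0.1807, 0.2055 and 0.02484, a value of few genes. Each of these medians was the value of Rps19bp1 alone, which is no subunit gene. The TOP partner genes with no shared stretch were Eif3f, Eif3l and Vim. Between the treated libraries they stood at 0.1323, -0.01133 and -0.274, so their median was the value of Eif3l alone. The median of the whole TOP partner list was 0.1598. Summed with pseudogenes by name, 1 member passed 1 log2 unit between the treated libraries. Summed by shared sequence, an alternative chosen after seeing the data, the medians were 0.2565 for glucose oxidase against control and 0.1688 between the treated libraries. In these sums Rpl36al, Rpl24 and Rps10 passed 1 log2 unit between the treated libraries, at 2.019, 1.837 and 1.364. For glucose oxidase against control Rpl36al and Rpl24 passed it, at -1.724 and -1.323. Each of these genes overlaps another annotated gene. Leaving out core members that overlap another gene was also chosen after seeing the data. Under the deposited scale and the filter on low counts no member median changed direction. No paired analysis was possible because each group has 1 library. Depth limits Rpl3l, Rpl24 and Rpl36al, at 35 reads or fewer in each library. Counting error is also wide for Rps10 and Rps27rt, and the spread between cultures is not known.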
